A study of Callithrix jacchus with 4 samples.

Results

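The genes described here defend cells against oxidants and metals: the switch of the NRF2 pathway and the enzymes it induces, the glutathione, thioredoxin and peroxiredoxin systems, superoxide dismutases and catalase, metallothioneins, and the proteins that store iron, import it and release it from heme. They were chosen by gene symbol from a list of 34, of which 32 were rows of a count table of 35108 genes. The symbols MT1X and MT2A were not rows of the table. All 32 passed the low-count filter that left 16385 genes for testing. The table holds 4 RNA-seq libraries made from the frontal cortex of adult marmosets, Callithrix jacchus. The 2 transgenic libraries (transgenic libraries 1 and 2, genotype APP transgene) came from females carrying a mutant amyloid precursor protein transgene driven by the human EF1α promoter, and no sex is given for the 2 wild-type libraries (wild-type libraries 1 and 2). EF1α is an elongation factor of protein synthesis made in nearly all cells, so its promoter does not restrict the transgene to neurons. The labels do not say that each library came from its own animal. The wild-type libraries differed widely in reads of a Y-linked gene, given next, so they are unlikely to be repeats of 1 animal. For the transgenic pair this is not known. How far the spread within a group, and the p-values that rest on it, are technical was not tested. Reads of KDM5D, a gene on the Y chromosome, numbered 0 and 0 in transgenic libraries 1 and 2, against 2 and 243 in wild-type libraries 1 and 2. The groups were thus not balanced in Y-linked reads, which were plentiful in wild-type library 2 only, and the part of sex in the results was not tested.

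NRF2, encoded by NFE2L2, is a transcription factor that KEAP1 holds in the cytoplasm and sends to degradation. Oxidants and electrophiles modify KEAP1, and NRF2 then pairs with small MAF proteins on antioxidant response elements of genes for glutathione synthesis, thioredoxin recycling and quinone and heme breakdown. In the brain this response is strongest in astrocytes, which also supply neurons with glutathione precursors. Ferritin stores iron in a shell of heavy (FTH1) and light (FTL) chains, TFRC brings transferrin-bound iron into cells, and metallothioneins bind zinc and copper.

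Total counts were 13462167 and 18932180 in transgenic libraries 1 and 2, against 12657323 and 13569838 in wild-type libraries 1 and 2. Levels are given in CPM, read counts scaled to a common library size with TMM factors, and 3 counts corresponded to 0.166 to 0.232 CPM. They are not divided by transcript length, so only libraries are compared, not genes. APP was at 2143 and 2748 CPM in the transgenic libraries and 1822 and 2181.8 CPM in the wild-type libraries (adjusted p = 0.798 in edgeR's quasi-likelihood test), and the sources used here do not say whether transgene reads were counted on this gene. Neuronal, astrocyte and oligodendrocyte markers of cortex were detected in all 4 libraries. Transgenic library 2 stood apart from the other libraries. Its 12 astrocyte markers had a median log2 difference from the wild-type mean of -1.63, against -0.066 in transgenic library 1, and 11 of them were at their lowest there. Its 12 oligodendrocyte markers were at -1.36, against 0.064 in transgenic library 1. In bulk tissue, fewer cells of a type and less RNA per cell cannot be told apart. Values without that library are therefore given beside the results that rest on it.

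No member passed the test. In edgeR's quasi-likelihood test, with Benjamini-Hochberg adjustment across the 16385 genes kept, 0 of the 32 members had an adjusted p under 0.05, the same as over all genes (0%), and the smallest adjusted p among members was 0.789. DESeq2, which called 0.112% of its genes as higher and 0.0937% as lower, and limma-voom also called 0 members. At an unadjusted p under 0.05 there were 2 members, FTL and MT3, both lower in the transgenic libraries, where 2.39% of all genes tested were lower at that level and 3.23% higher. The fitted change was positive in 13 members, as in 49.6% of all genes tested, and negative in 19, as in 50.4% of all genes. The median over members was -0.15 on the log2 scale, beside -0.0022 over all genes tested. Fitted changes past 2-fold were found in HMOX1 and SOD2, which were higher (2.7% of all genes), and in NQO1, which was lower (2.45%). Leaving out transgenic library 2 gave a member median of -0.075, and leaving out transgenic library 1 gave -0.19.

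The values in single libraries showed different patterns. In 14 members (43.8%) the lower 2 libraries were the transgenic ones, which held for 19.4% of all genes tested. In 4 members (12.5%) the transgenic libraries were the upper 2, beside 19.5% of all genes. The 14 genes were KEAP1, NQO1, GSS, SOD1, GPX1, GPX4, TXN2, the 5 peroxiredoxin genes of the list, MT3 and FTL, and the 4 were NFE2L2, HMOX1, TXNRD1 and GSR. The same 14 and 4 genes were found with DESeq2-type scaling and with library totals without scaling. These shares are descriptions, since the genes come from the same 4 libraries. A second pattern belonged to 1 library: transgenic library 2 was more than 2-fold above or below the wild-type mean in 7 members (21.9%), beside 12.3% of all genes tested, and transgenic library 1 in 0 members, beside 3.34% of all genes. Transgenic library 2 was the highest of the 4 libraries in 10 members, which held for 35.1% of all genes, and the lowest in 15, which held for 35.5%.

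**Figure D1:**
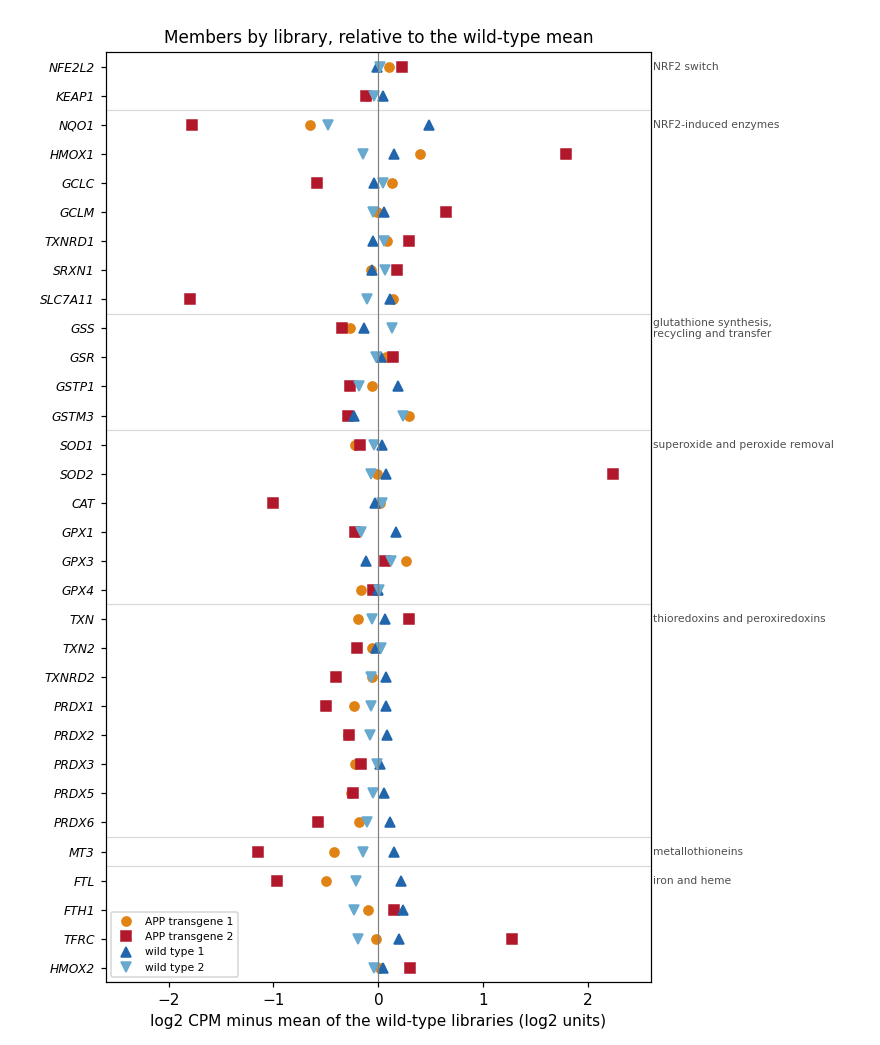
Each symbol is the log2 CPM of 1 member in 1 library minus the mean log2 CPM of the 2 wild-type libraries (x axis, log2 units), with members grouped by role down the page. Most members lie within 0.5 log2 units of 0, while transgenic library 2 reaches 2.24 in SOD2, 1.78 in HMOX1, 1.28 in TFRC and -1.80 in SLC7A11.

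The NRF2 switch itself differed little between the groups. NFE2L2 was at 64.4 and 70.3 CPM in transgenic libraries 1 and 2, against 59.5 and 60.5 CPM in wild-type libraries 1 and 2. Both transgenic libraries lay above both wild-type libraries, by a fitted log2 fold change of 0.17 ± 0.13 (SE, n = 2 per group), which did not pass the test (adjusted p = 0.800 in edgeR). KEAP1, the sensor that sends NRF2 to degradation, was at 54.9 and 54.7 CPM in the transgenic and 61.1 and 57.5 CPM in the wild-type libraries (log2 fold change -0.11 ± 0.13, adjusted p = 0.840 in edgeR). The ratio of NFE2L2 to KEAP1 reads within a library, which does not depend on library scaling, was 1.17 and 1.29 in the transgenic and 0.973 and 1.05 in the wild-type libraries. The difference from library to library was small in both genes.

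A further 21 genes of the pathway (partners of NRF2, competitors and other targets) were tested from a list of 22. Of these, 13 were higher and 8 lower in sign, 0 were called by edgeR, and the median log2 fold change was 0.11. MAFF, a small MAF protein that pairs with NRF2 and is itself induced by inflammatory signals, was at 1.84 and 32.4 CPM in transgenic libraries 1 and 2, against 1.86 and 1.54 CPM in the wild-type libraries. Transgenic library 2 alone was high, 19.1-fold above the wild-type mean. The fitted log2 fold change over both was 3.34 ± 1.27 (adjusted p = 0.789 in edgeR) and 0.11 without transgenic library 2. RBX1, the ring protein of the ligase that KEAP1 works with, was at 38.1 and 36.7 CPM in the transgenic and 45.4 and 42.8 CPM in the wild-type libraries (log2 fold change -0.24 ± 0.14, adjusted p = 0.789 in edgeR).

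The enzymes that NRF2 induces did not move together. Of the 7, 4 had positive and 3 negative log2 fold changes, between -1.20 and 1.28 and with a median of 0.059. NQO1, which reduces quinones with 2 electrons at a time, was at 17.9 and 8.14 CPM in transgenic libraries 1 and 2, against 39.4 and 20.2 CPM in wild-type libraries 1 and 2. The groups did not overlap, but the libraries of each group also differed widely from each other. The log2 fold change was -1.20 ± 0.49 (SE, n = 2 per group), with an adjusted p = 0.789 in edgeR, and it was -0.74 without transgenic library 2 and -0.64 without wild-type library 1.

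HMOX1, the inducible enzyme that opens heme and frees its iron, went the other way. It was at 4.34 and 11.6 CPM in transgenic libraries 1 and 2, against 3.64 and 2.93 CPM in the wild-type libraries. Transgenic library 1 lay just above both wild-type libraries and transgenic library 2 was 3.53-fold above their mean. The log2 fold change was 1.28 ± 0.52 (adjusted p = 0.789 in edgeR) and 0.40 without transgenic library 2. The constitutive heme oxygenase gene HMOX2 was at 53.6 and 65.2 CPM in the transgenic and 54.6 and 51.6 CPM in the wild-type libraries, with overlap.

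The genes that supply glutathione synthesis parted within transgenic library 2. SLC7A11, the cystine importer of system xc-, which is strong in astrocytes, was at 115 and 29.7 CPM in transgenic libraries 1 and 2, against 112 and 96.2 CPM in the wild-type libraries. Only transgenic library 2 was low, and transgenic library 1 was the highest of the 4. The log2 fold change was -0.53 ± 0.59 (adjusted p = 0.838 in edgeR) and 0.13 without transgenic library 2. Its heavy-chain partner SLC3A2, from the list of other glutathione genes and chosen after its values were seen, was at 83.3 and 107 CPM in the transgenic and 97.2 and 75.5 CPM in the wild-type libraries. The ratio of SLC7A11 to SLC3A2 reads was 1.38 and 0.279 in the transgenic and 1.16 and 1.27 in the wild-type libraries.

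GCLC, the catalytic subunit of the ligase that limits glutathione synthesis, was at 70.8 and 43.1 CPM in the transgenic and 63.0 and 66.8 CPM in the wild-type libraries. GCLM, the modifier subunit of the same enzyme, was at 20.9 and 33.1 CPM in the transgenic and 21.9 and 20.3 CPM in the wild-type libraries. Transgenic library 2 was thus lowest for the catalytic and highest for the modifier subunit: the ratio of GCLM to GCLC reads was 0.296 and 0.769 in transgenic libraries 1 and 2, against 0.348 and 0.304 in the wild-type libraries. The log2 fold change of GCLC was -0.19 ± 0.25, and 0.12 without transgenic library 2. That of GCLM was 0.36 ± 0.26, and -0.015 without transgenic library 2. TXNRD1, which recycles thioredoxin, was at 71.1 and 82.7 CPM in the transgenic and 65.1 and 69.7 CPM in the wild-type libraries, without overlap (log2 fold change 0.19 ± 0.14, adjusted p = 0.798 in edgeR). SRXN1, which restores over-oxidized peroxiredoxins, was at 51.8 and 61.3 CPM in the transgenic and 51.9 and 56.7 CPM in the wild-type libraries, with overlap.

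**Figure D2:**
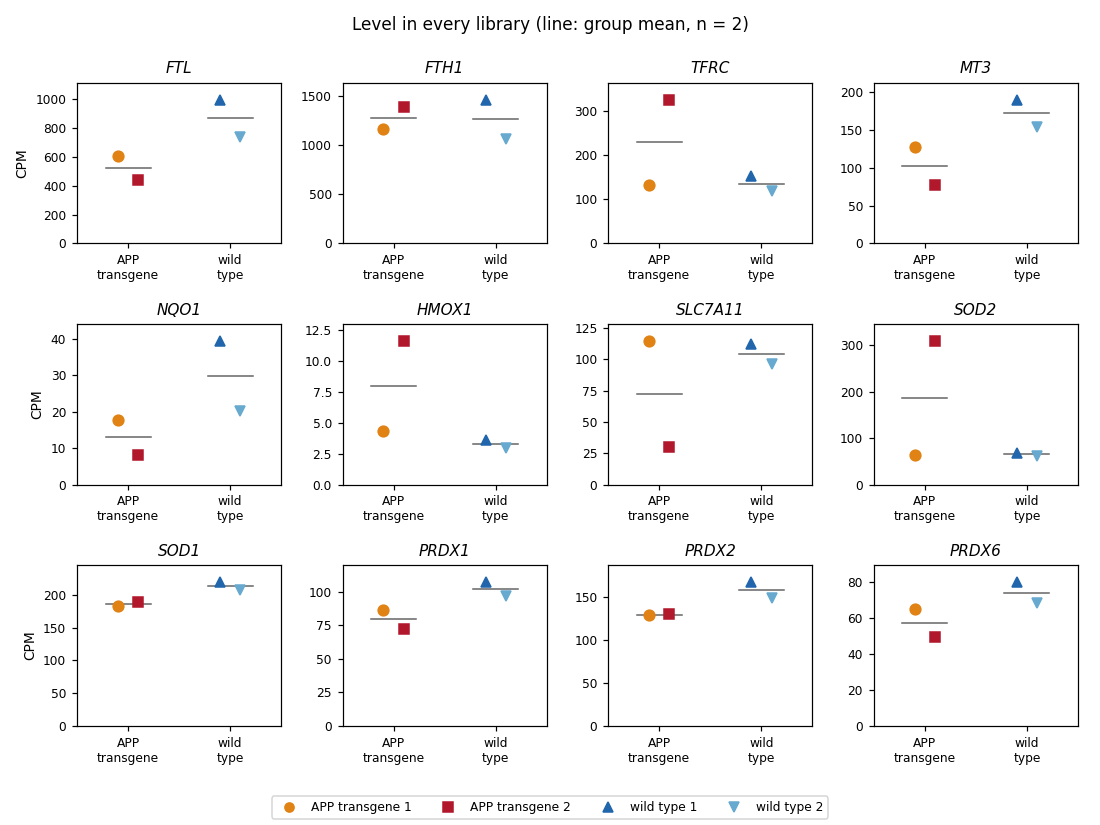
CPM of 12 members in each library (y axis, linear from 0), with the transgenic libraries to the left of the wild-type libraries and a line at each group mean (n = 2). FTL, MT3 and the peroxiredoxin genes are lower in both transgenic libraries, whereas SOD2 (309 CPM), TFRC (326 CPM) and SLC7A11 (29.7 CPM) stand apart in transgenic library 2 alone.

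The other glutathione enzymes differed little. GSS, which completes glutathione synthesis, was at 9.70 and 9.19 CPM in the transgenic and 10.7 and 12.9 CPM in the wild-type libraries. GSR, which reduces oxidized glutathione, was at 35.3 and 36.8 CPM in the transgenic and 34.0 and 32.8 CPM in the wild-type libraries. Neither pair of groups overlapped, with GSS lower and GSR higher in the transgenic libraries, at log2 fold changes of -0.32 ± 0.23 and 0.11 ± 0.15 (adjusted p = 0.797 and 0.861 in edgeR). The glutathione transferase genes GSTP1 and GSTM3 overlapped between the groups, with averages of 34.1 ± 3.48 and 5.14 ± 1.47 CPM in the transgenic and 38.6 ± 7.07 and 5.09 ± 1.18 CPM in the wild-type libraries (SD, n = 2 each).

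Of 34 other glutathione genes listed, 24 were tested, with 12 positive and 12 negative fitted changes (median 0.016 on the log2 scale) and 0 called by edgeR. LANCL1, a glutathione-binding protein abundant in brain, was at 399 and 435 CPM in the transgenic and 318 and 380.4 CPM in the wild-type libraries (adjusted p = 0.789 in edgeR). SLC25A39, which carries glutathione into mitochondria, was at 36.7 and 33.8 CPM in the transgenic and 45.1 and 43.3 CPM in the wild-type libraries (adjusted p = 0.789 in edgeR).

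The superoxide dismutases had opposite signs. SOD1, the copper and zinc enzyme of the cytosol, was at 182 and 189 CPM in transgenic libraries 1 and 2, against 219 and 208 CPM in the wild-type libraries. Its groups did not overlap and its libraries agreed closely within each group (log2 fold change -0.20 ± 0.12, adjusted p = 0.789 in edgeR). SOD2, the manganese enzyme of the mitochondrial matrix and a known target of inflammatory signalling through NF-κB, was at 64.8 and 309 CPM in transgenic libraries 1 and 2, against 68.7 and 62.2 CPM in the wild-type libraries. Transgenic library 1 was level with wild type and transgenic library 2 was 4.72-fold above their mean, the largest difference of a single library from the wild-type mean among the 32 members. The log2 fold change of SOD2 was 1.52 ± 0.69 (adjusted p = 0.789 in edgeR) and -0.017 without transgenic library 2. The ratio of SOD2 to SOD1 reads was 0.356 and 1.63 in the transgenic and 0.314 and 0.299 in the wild-type libraries.

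CAT, the peroxisomal enzyme that splits hydrogen peroxide, was at 16.7 and 8.14 CPM in transgenic libraries 1 and 2, against 16.1 and 16.9 CPM in the wild-type libraries. It was low in transgenic library 2 only, and its log2 fold change was -0.41 ± 0.37, and 0.013 without that library. Among the glutathione peroxidases, GPX1 and the lipid peroxide reductase GPX4 were slightly lower in both transgenic libraries. GPX1 was at 87.5 and 86.3 CPM in the transgenic and 113 and 89.8 CPM in the wild-type libraries, and GPX4 at 94.7 and 103 CPM in the transgenic and 106 and 107 CPM in the wild-type libraries. The log2 fold changes were -0.22 ± 0.15 and -0.11 ± 0.12 (adjusted p = 0.797 and 0.840 in edgeR). GPX3, the secreted form, overlapped between the groups at 27.6 ± 2.67 CPM in the transgenic and 24.7 ± 2.95 CPM in the wild-type libraries (SD, n = 2 each).

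The peroxiredoxins, abundant enzymes that reduce peroxides with electrons from thioredoxin, were lower in both transgenic libraries in all 5 genes of the list. Groups parted in this direction, without overlap, in 19.4% of all genes tested. PRDX2, the form most typical of neurons, was at 129 and 129.5 CPM in transgenic libraries 1 and 2, against 167 and 148 CPM in the wild-type libraries (log2 fold change -0.29 ± 0.12, adjusted p = 0.789 in edgeR). PRDX1, which NRF2 induces, was at 86.9 and 72.3 CPM in the transgenic and 107 and 97.2 CPM in the wild-type libraries (-0.36 ± 0.15 on the log2 scale, and -0.24 without transgenic library 2). PRDX6, which uses glutathione and is strong in astrocytes, was at 65.0 and 49.5 CPM in the transgenic and 79.9 and 68.5 CPM in the wild-type libraries (-0.37 ± 0.19, and -0.19 without transgenic library 2). In PRDX2 the transgenic libraries were nearly level, whereas in PRDX1 and PRDX6 transgenic library 2 was the lower of the pair.

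PRDX3, of mitochondria, was at 63.8 and 66.2 CPM in the transgenic and 75.1 and 73.9 CPM in the wild-type libraries (log2 fold change -0.20 ± 0.12). PRDX5, found in mitochondria, peroxisomes and cytosol, was at 52.5 and 53.3 CPM in the transgenic and 65.5 and 60.6 CPM in the wild-type libraries (-0.25 ± 0.13). Each of the 5 genes had a negative log2 fold change in all 12 alternative fits, between -0.58 and -0.17. These fits reuse the same 4 libraries, whose groups did not overlap in these genes, so their agreement in sign was largely given in advance. The adjusted p was 0.789 or 0.790 in the edgeR fit of all 4 libraries. The differences were small and not separable by the test from the spread between libraries. PRDX4, the form of the endoplasmic reticulum, is no member and was chosen after its values were seen. It was at 8.01 and 10.2 CPM in the transgenic and 8.82 and 7.75 CPM in the wild-type libraries, with overlap.

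Thioredoxin, the electron donor of most peroxiredoxins, overlapped between the groups: TXN was at 60.5 and 84.6 CPM in transgenic libraries 1 and 2, against 72.4 and 66.2 CPM in the wild-type libraries. Its mitochondrial form TXN2 was at 75.1 and 68.1 CPM in the transgenic and 77.1 and 79.6 CPM in the wild-type libraries, without overlap (log2 fold change -0.13 ± 0.13, adjusted p = 0.823 in edgeR). TXNRD2, the mitochondrial reductase, was at 21.3 and 16.8 CPM in the transgenic and 23.4 and 21.2 CPM in the wild-type libraries. The cytosolic genes TXN and TXNRD1 were highest and the mitochondrial genes TXN2 and TXNRD2 lowest in transgenic library 2, so the ratio of TXN to TXN2 reads was 0.805 and 1.24 in the transgenic and 0.940 and 0.831 in the wild-type libraries.

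From the list of 20 other thioredoxin and methionine repair genes, all 20 were tested, with 11 positive and 9 negative fitted changes (median 0.070 on the log2 scale) and 0 called by edgeR. TXNIP, which binds and inhibits thioredoxin, was at 72.4 and 73.2 CPM in the transgenic and 51.4 and 62.8 CPM in the wild-type libraries (log2 fold change 0.35 ± 0.15, adjusted p = 0.789 in edgeR). TXNRD3, a thioredoxin and glutathione reductase, was at 7.42 and 8.53 CPM in the transgenic and 12.5 and 12.4 CPM in the wild-type libraries (-0.64 ± 0.22, adjusted p = 0.789 in edgeR). These genes were named for the smallest p in each direction of the list. Without transgenic library 2 their log2 fold changes were 0.34 and -0.75, and since their groups did not overlap, the signs were largely given in advance.

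**Figure D3:**
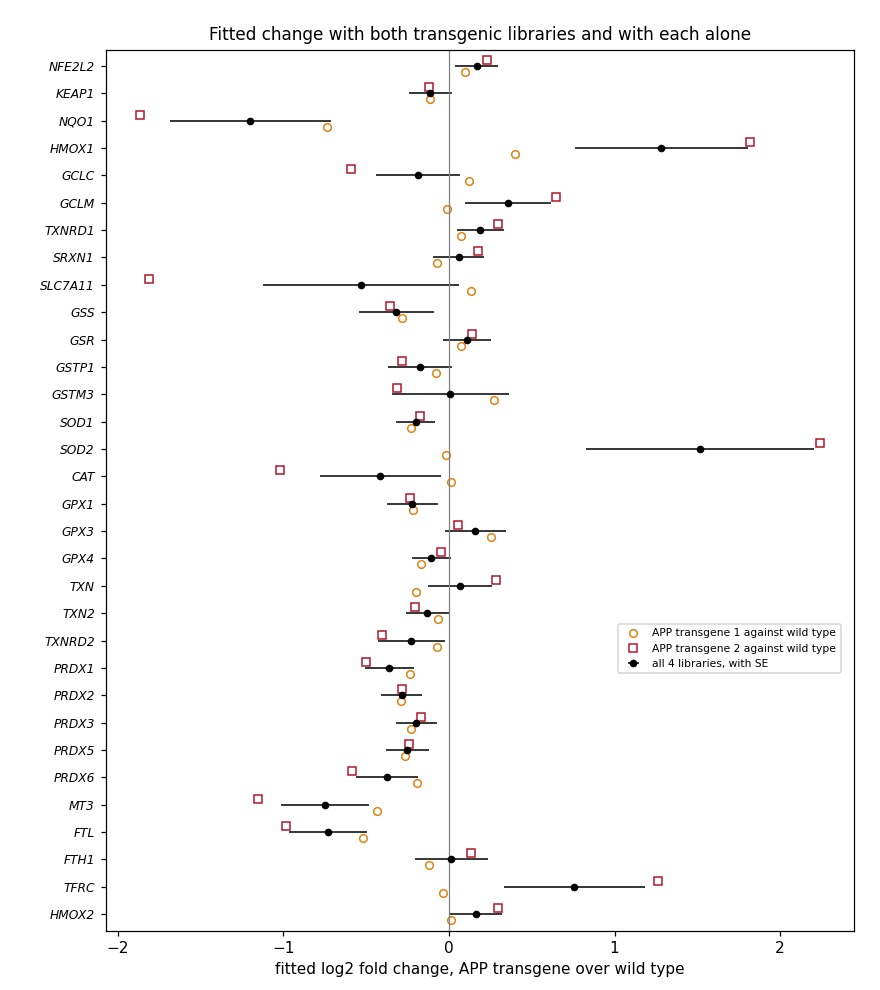
Fitted log2 fold change of each member, transgenic over wild type (x axis): filled circles with bars are the fit of all 4 libraries with its standard error, open circles the fit of transgenic library 1 against both wild-type libraries, and open squares that of transgenic library 2. The open symbols lie close together for PRDX2, PRDX3, PRDX5 and SOD1 and far apart for SOD2 (-0.017 and 2.24), SLC7A11 (0.13 and -1.81) and TFRC (-0.038 and 1.26).

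Among metallothioneins, MT3, the form made in brain and known as growth inhibitory factor, was at 127 and 77.3 CPM in transgenic libraries 1 and 2, against 190.1 and 154 CPM in the wild-type libraries. The groups did not overlap, the transgenic libraries being the lower pair, and transgenic library 2 was lowest. The log2 fold change was -0.75 ± 0.27 (SE, n = 2 per group), with an adjusted p = 0.789 in edgeR, and it was -0.44 without transgenic library 2 and -0.60 without wild-type library 1.

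The neighbours of MT3 behaved differently. In RefSeq's marmoset gene list for the assembly calJac240_pri, 15 genes run from MT4 through MT3 to MT1X, and 13 of them were rows of the count table by symbol or gene ID. That assembly was used for names and gene order only, since the counts may rest on another build. These rows were looked up after the values of the members were seen. MT1X matched the row LOC100896966 by gene ID, with 9 and 59 counts in transgenic libraries 1 and 2, against 15 and 6 counts in the wild-type libraries. The 2 most strongly counted genes between MT3 and MT1X are coding genes that neither the files nor that list name. LOC100404252, next to MT3, was at 11.3 and 217 CPM in the transgenic and 19.9 and 9.36 CPM in the wild-type libraries, and LOC100894903 at 11.98 and 77.1 CPM in the transgenic and 22.4 and 10.3 CPM in the wild-type libraries.

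Transgenic library 2 was thus 14.8-fold above the wild-type mean in LOC100404252 and 4.71-fold in LOC100894903, while MT3 was lowest there. Transgenic library 1 was at 0.774 and 0.732 times the wild-type mean. Their log2 fold changes were 2.97 ± 1.29 and 1.45 ± 0.87 (adjusted p = 0.789 for each in edgeR), and -0.37 and -0.45 without transgenic library 2. Of the 10 rows after MT3, 8 had at least 10 counts in all. Transgenic library 2 was the highest library in 7 of these 8, beside 35.1% of all genes tested. Only 3 of these rows passed the low-count filter, LOC100404252, LOC100894903 and MT1X, and the others had few counts. The 10 rows summed to 352 and 5471 counts in transgenic libraries 1 and 2, against 583 and 288 counts in the wild-type libraries. Metallothionein genes of the MT1 and MT2 type are closely alike in sequence in mammals, so reads may have been split among such copies or dropped. Sequences of these rows were not compared here.

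**Figure D4:**
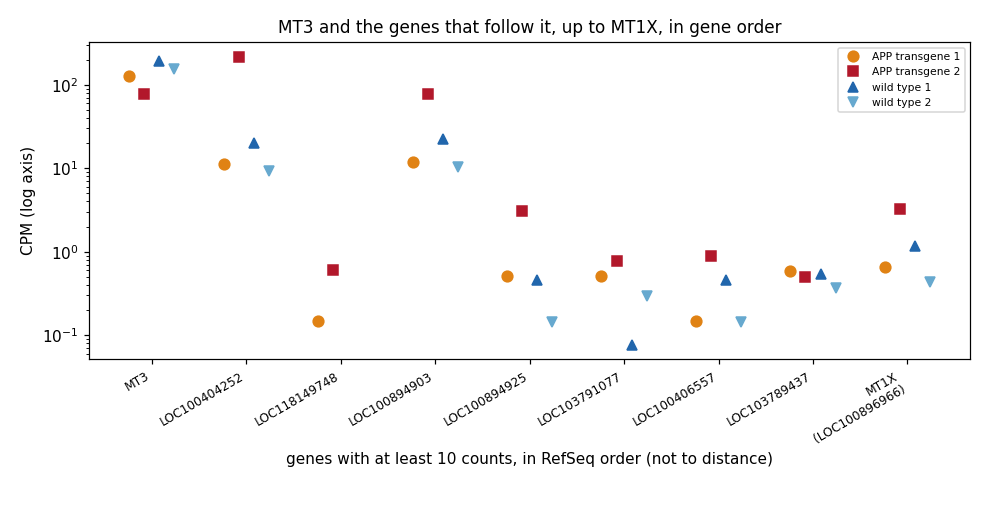
CPM (y axis, log scale) of MT3 and of the genes that follow it up to MT1X, in gene order along the x axis and not to distance, for rows with at least 10 counts; libraries with no count are not drawn. Transgenic library 2 is lowest in MT3 and highest in 7 of the 8 genes after it, beside 35.1% of all genes tested. Only 3 of these genes passed the low-count filter.

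Of 28 genes listed for zinc and copper handling, 22 were tested, with 13 positive and 9 negative fitted changes (median 0.028 on the log2 scale) and 0 called by edgeR. SLC30A10, an exporter of manganese and zinc, was at 7.94 and 11.4 CPM in the transgenic and 4.49 and 5.85 CPM in the wild-type libraries (0.90 ± 0.31, adjusted p = 0.789 in edgeR, and 0.61 without transgenic library 2), and SLC30A5, which loads zinc into the secretory pathway, at 38.0 and 20.5 CPM in the transgenic and 34.5 and 41.5 CPM in the wild-type libraries (-0.38 ± 0.32, and -0.0035 without transgenic library 2). The following genes were chosen after their values were seen. The zinc importers SLC39A14 and SLC39A8 were at 101 and 34.3 CPM in transgenic library 2, against 46.4 and 9.41 CPM in transgenic library 1 and means of 45.6 and 11.1 CPM in wild type. SLC39A12, an importer strong in astrocytes, was at 20.4 and 1.83 CPM in transgenic libraries 1 and 2, against 17.1 and 24.6 CPM in the wild-type libraries. MTF1, the zinc sensor that drives metallothionein genes, was at 32.7 and 22.7 CPM in the transgenic and 31.0 and 31.7 CPM in the wild-type libraries.

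The chains of ferritin differed from each other. FTL was at 606 and 439 CPM in transgenic libraries 1 and 2, against 996 and 740.1 CPM in the wild-type libraries. Neither transgenic library reached the wild-type range, at a fitted log2 fold change of -0.73 ± 0.24 (SE, n = 2 per group) with the smallest p among members, 0.0249 unadjusted and 0.789 adjusted in edgeR. It was -0.52 without transgenic library 2 and -0.51 without wild-type library 1. FTH1, the chain that oxidizes iron, was at 1166 and 1388 CPM in the transgenic and 1465 and 1065 CPM in the wild-type libraries, with overlap (0.014 ± 0.22, adjusted p = 0.988 in edgeR; the sign turned with library totals, at -0.037). The ratio of FTH1 to FTL reads was 1.92 and 3.16 in transgenic libraries 1 and 2, against 1.47 and 1.44 in the wild-type libraries, which were close to each other. Ferritin genes have processed copies in primate genomes, and the sources used here do not say how reads that match several places were counted.

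TFRC, whose messenger RNA is stabilized when iron is scarce, was at 133 and 326 CPM in transgenic libraries 1 and 2, against 154 and 118 CPM in the wild-type libraries. The value of transgenic library 1 was inside the wild-type range, whereas transgenic library 2 was 2.40-fold above their mean (0.76 ± 0.43, adjusted p = 0.789 in edgeR, and -0.038 without transgenic library 2). The ratio of TFRC to FTH1 reads was 0.114 and 0.235 in the transgenic and 0.105 and 0.111 in the wild-type libraries.

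Of 34 other iron and heme genes listed, 29 were tested, with 15 positive and 14 negative fitted changes (median 0.015 on the log2 scale) and 0 called by edgeR. HFE, which binds the transferrin receptor and is mutated in hereditary iron overload, was at 8.60 and 8.20 CPM in transgenic libraries 1 and 2, against 4.33 and 4.53 CPM in the wild-type libraries. HFE was named for the smallest p among the genes higher in this list, a choice that favours libraries agreeing within groups, as they did here. The 1.89-fold difference (log2 0.92 ± 0.25, adjusted p = 0.789 in edgeR) was 0.95 on the log2 scale without transgenic library 2. STEAP2, a metalloreductase, was at 105 and 101 CPM in the transgenic and 126 and 141 CPM in the wild-type libraries (-0.37 ± 0.13, adjusted p = 0.789 in edgeR). Chosen after their values were seen, the iron exporter SLC40A1 and the iron regulatory protein gene ACO1 were low in transgenic library 2 only: SLC40A1 was at 14.4 and 4.54 CPM in the transgenic and 14.0 and 13.2 CPM in the wild-type libraries, and ACO1 at 38.2 and 15.1 CPM in the transgenic and 36.4 and 31.96 CPM in the wild-type libraries.

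When transgenic library 1 was left out, so that transgenic library 2 was set alone against the wild type, edgeR called 9 of the 32 members (28.1%), beside 9.92% of all genes tested in that fit (4.52% higher and 5.4% lower). A lone library is assumed there to vary like the wild-type pair, so this describes that library and not the genotype. The 3 called as higher were SOD2 (log2 fold change 2.24, adjusted p = 0.000162), HMOX1 (1.82, adjusted p = 0.00849) and TFRC (1.26, adjusted p = 0.00476) in this edgeR fit. The 6 called as lower were NQO1, SLC7A11, MT3, CAT, FTL and GCLC, with log2 fold changes between -1.87 and -0.59. When transgenic library 2 was left out instead, edgeR called 0 members and 0.0175% of all genes, and in the other 10 alternatives 0 members passed as well, with adjusted p up to 0.9999. Leaving out transgenic library 2 turned the sign of 9 members, among them SOD2, TFRC, SLC7A11, GCLC and CAT.

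Levels of cell type markers are given beside these values, and their part in the results was not tested. The summed level of the 12 astrocyte markers was 10960 and 4292 CPM in transgenic libraries 1 and 2, against 12338 and 10280 CPM in the wild-type libraries, beside the low values of SLC7A11, CAT, MT3 and SLC39A12 in transgenic library 2. The astrocyte gene GFAP was an exception at 757 and 635 CPM in the transgenic and 695 and 517 CPM in the wild-type libraries. MT3 was also below both wild-type libraries in transgenic library 1, whose astrocyte sum lay inside the wild-type range. The 12 oligodendrocyte markers summed to 3360 and 1236 CPM in the transgenic and 3399 and 2690 CPM in the wild-type libraries. Microglia are rich in ferritin light chain. Their 12 markers were all lower in sign. They summed to 187 and 161 CPM in the transgenic and 266 and 309 CPM in the wild-type libraries. FTL was also lower in both transgenic libraries. Within the wild-type pair, FTL was higher in library 1 and the microglial sum in library 2. TMEM119 had 3 counts in transgenic library 2. The neuronal markers summed to 12969 and 15102 CPM in the transgenic and 13707 and 14098 CPM in the wild-type libraries. The 10 endothelial markers summed to 220 and 173 CPM in the transgenic and 328 and 257 CPM in the wild-type libraries. Blood differed within the groups: HBB, matched by gene ID, had 73 and 1380 counts in the transgenic and 3758 and 298 counts in the wild-type libraries. The 6 markers of meninges and fibroblasts also differed within groups, with sums of 207 and 38.3 CPM in the transgenic and 26.2 and 142 CPM in the wild-type libraries. Of the markers of choroid plexus and ependyma, PIFO and CCDC153 were at 0 in all 4 libraries.

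**Figure D5:**
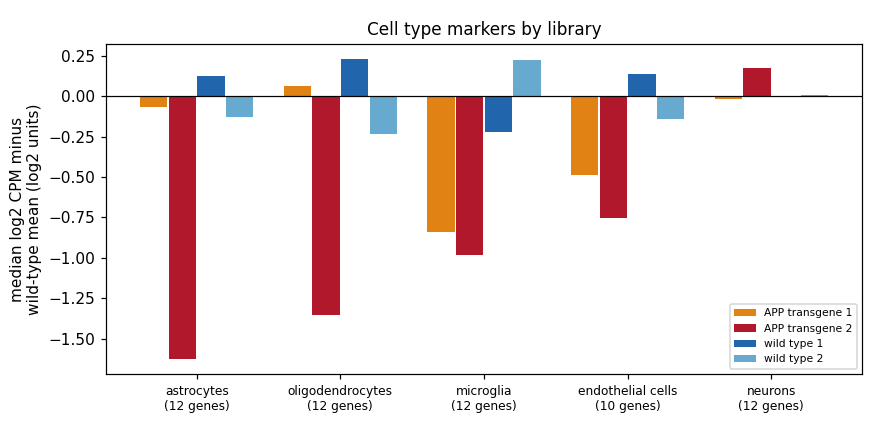
Median log2 CPM of the markers of each cell type minus the mean of the 2 wild-type libraries (y axis, log2 units), 1 bar per library, transgenic libraries to the left. Astrocyte and oligodendrocyte medians are at -1.63 and -1.36 in transgenic library 2 and near 0 in transgenic library 1, whereas microglial and endothelial medians are below 0 in both transgenic libraries.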

How the data were processed

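Total RNA of frontal cortex was extracted with the RNeasy Mini Kit and made into libraries with KAPA Hyper reagents, per the labels' protocols. The authors deposited 1 table of raw counts per gene for 4 libraries. STAR 2.5.3a, featureCounts 1.5.2 and kallisto 0.46.2 are named in the submitters' processing notes; the sources used here do not give the genome build, annotation or strand setting.

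Counts were fitted with edgeR 4.0.16 (R 4.3.3) by its quasi-likelihood test with genotype as the only term, TMM scaling and edgeR's low-count filter, leaving 2 residual degrees of freedom. Benjamini-Hochberg adjustment ran across the 16385 genes kept of 35108, with a threshold of 0.05. Of all genes, 8054 had no count. The SE of a log2 fold change was its size divided by the square root of F. Log2 CPM used a prior count of 2. The biological coefficient of variation was 24.5%. The scripts were tested on simulated data.

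Members and lists were chosen with earlier results of these data known. Full values were given for members whose groups did not overlap or whose unadjusted p was under 0.05, for a set of always-named members, and for the gene of smallest p in each direction of each pathway list; other genes outside the list of members are stated to be chosen after their values were seen, apart from APP, KDM5D and the cell type markers. Alternatives were DESeq2 1.42.0, limma-voom (limma 3.58.1), other scalings and filters, a replicate block, and leaving out each library. Promoter and protein sequences were not used here.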

Additional observations from a re-analysis of the deposited data

How the results depend on the processing

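The members called were 0 in every fit except the one without transgenic library 1, so leaving out 1 library gave 0 to 9 members and 0 to 1710 genes over the whole table. DESeq2 called 46 genes and the fit with no low-count filter 5, none of them members. The median log2 fold change of members lay between -0.19 and -0.075 when 1 library was left out. The sign of GSTM3 turned in limma-voom (-0.031), with library totals (-0.030) and with the replicate block (-0.0015), and that of FTH1 with library totals (-0.037). Without 1 library, values ranged from -0.071 to 0.17 in SRXN1, -0.35 to 0.018 in GSTP1, -0.31 to 0.27 in GSTM3, -0.19 to 0.26 in FTH1, -0.59 to 0.12 in GCLC, -0.015 to 0.65 in GCLM, -1.81 to 0.13 in SLC7A11, -0.017 to 2.24 in SOD2, -1.02 to 0.013 in CAT, -0.20 to 0.29 in TXN and -0.038 to 1.26 in TFRC; the cause was not tested. The replicate block called 0 genes and 0 members, with a member median of -0.15. Same-numbered libraries correlated at -0.14 in their deviations from the group means, over 2 pairs, so the numbers were not taken as pairs; the crossed pairing, chosen after seeing the data, called 0 genes.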

Other observations

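Of 14 listed oxidase genes, which make oxidants, 9 were tested, 7 higher and 2 lower in sign and 0 called by edgeR, with a median log2 fold change of 0.68, which was -0.11 without transgenic library 2. Transgenic library 2 was the highest library in 6 of the 9 and the lowest in 1, beside 35.1% and 35.5% of all genes tested. CYBB, the catalytic subunit of the phagocyte NADPH oxidase, was at 5.22 and 45.8 CPM in transgenic libraries 1 and 2, against 6.19 and 3.44 CPM in the wild-type libraries. It was chosen after its values were seen, and it was high in transgenic library 2 only. Any link to microglial content was not tested.

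MAOB, the monoamine oxidase of astrocytes, which releases hydrogen peroxide, was at 113 and 167 CPM in the transgenic and 79.9 and 94.6 CPM in the wild-type libraries (log2 fold change 0.68 ± 0.22, adjusted p = 0.789 in edgeR, and 0.37 without transgenic library 2). Unlike CYBB, it was above both wild-type libraries in both transgenic libraries. MAOA, its neuronal counterpart, was at 47.2 and 29.3 CPM in the transgenic and 49.98 and 44.7 CPM in the wild-type libraries. MAOB was highest in transgenic library 2, where 11 of the 12 astrocyte markers, all but GFAP, were lowest. The part of cell types in these values was not tested. LCN2, an iron-siderophore binding protein of acute inflammation chosen after its values were seen, was at 0.294 and 11.7 CPM in the transgenic and 0.0774 and 0.293 CPM in the wild-type libraries.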
